A study of Mus musculus with 2 samples.

Results

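The solute carriers described here are those of the Slc1, Slc3, Slc7, Slc36, Slc38 and Slc43 families, which move amino acids across the plasma membrane and the lysosomal membrane. They were found by symbol alone: every mouse gene whose symbol begins with 1 of these family names followed by a digit, with 1 gene of the Slc7 family not analysed here. This gave 44 of 32285 mouse genes, of which 41 are carriers or their partner chains and 3 only share the name: Slc7a6os, a protein-coding neighbour of Slc7a6, and the antisense genes Slc36a1os and Slc36a3os. The genes were followed in brain tissue of mice that had received GL261 glioma cells and were taken on day 24. GL261 is a mouse glioma line of C57BL/6 origin, so tumour and host cells carry the same mouse genes. One library came from hosts labelled C57BlL6 WT and the other from hosts labelled Cacna1H-/-, in which the gene of the T-type calcium channel Cav3.2 is meant to be missing. GL261 cells were implanted into both kinds of host, and the labels do not say how many animals each library came from.

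Mammalian cells import amino acids through carriers with overlapping substrates. Several Slc7 proteins, called light chains, reach the membrane only when bound to the heavy chain Slc3a2: Slc7a5 and Slc7a8 exchange large neutral amino acids such as leucine, Slc7a6 and Slc7a7 exchange cationic for neutral amino acids, and Slc7a11 exports glutamate in return for cystine, the source of cysteine for glutathione. Slc1a2 and Slc1a3 clear glutamate from the extracellular space of the brain and are known above all from astrocytes, Slc38a1 and Slc38a2 import glutamine with sodium, and Slc38a9 sits on the lysosome, where it passes the arginine signal to mTORC1.

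Both libraries were made with a kit that counts unique molecular identifiers (UMIs), short tags that mark single captured molecules, at the 3′ end of transcripts. A barcode counted as a cell when it had 500 mouse genes or more and no more than 10% of its UMIs from mitochondrial genes, which left 3110 of 7382 in the library labelled wild type and 6575 of 8369 in the library labelled knockout, with medians of 12522.5 and 11071 UMIs. The libraries shared 21 barcodes, 7 of them among the kept cells. In the cells so kept Cacna1h had 13 UMIs in the library labelled wild type (0.25 per 1000000 UMIs) and 168 in the one labelled knockout (1.67 per 1000000 UMIs), the reverse of what the labels alone would give. This sum covers tumour-like and host cells together. GL261 cells went into both kinds of host, so it does not check the host labels. A 3′ tag outside a deleted part would check nothing, and the sources used here do not say which part was deleted. The groups are therefore called by their labels throughout. Outside the tumour-like class, 2058 of 2511 cells of the library labelled wild type had a UMI of a Y-linked gene and none of Xist, and 1 had Xist alone. In the library labelled knockout 3861 of 5632 such cells had Xist alone and 911 a Y-linked gene alone, so its host cells came from animals of both sexes. Beside the called differences in host classes, values are given for the cells with Xist and for those with a Y-linked gene. With 1 library per group there is no replicate spread and no test. Intervals are exact 95% intervals that cover counting error only, and a difference is called by size alone, at 1.5-fold.

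Cells were sorted into classes by markers that include none of the 44 genes, and the 9 classes that reached 50 cells in both libraries are described. In the libraries labelled wild type and knockout, in this order here and wherever 2 values stand side by side below, they held 599 and 943 tumour-like cells, 602 and 1505 T cell-like cells, 244 and 591 NK cell-like cells, 57 and 272 B cell-like cells, 684 and 1065 monocyte or macrophage-like cells, called macrophage-like below, 62 and 52 type 1 dendritic-like cells and 84 and 214 migratory dendritic-like cells. The microglia-like (81 and 347) and plasmacytoid-like cells (59 and 179) were gated more widely after class sizes were seen, because their gates shared markers with 1 other gate. The tumour gate rests on glial progenitor genes such as Olig1 and Sox10, which host progenitors also use, so such cells would be counted as tumour-like. Only 0 and 3 cells passed as astrocyte-like, and 286 and 727 cells that passed several gates and 237 and 462 that passed none were left out.

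The 44 genes together took 0.136% of all UMIs in both libraries, 70842 of 52031677 and 136962 of 100764971. Of them 26 reached 100 UMIs over both libraries in at least 1 class, called measured below, and 5 did so in all 9 classes: the heavy chain Slc3a2, the arginine and lysine carrier Slc7a1, the glutamine carriers Slc38a1 and Slc38a2, and the lysosomal Slc38a9. The other 18 were never measured, and 2 of those, Slc7a12 and Slc38a4, had no UMI in any kept cell. Slc3a2 had the most UMIs of all members over the 9 classes with both libraries summed. Over all kept cells Slc38a1 had more than Slc3a2 in the library labelled wild type, 11711 against 10911. In the library labelled knockout it had fewer, 18998 against 21503. For 16 members the class with the highest level was the same in both libraries, at 20 CPM or more, and for 8 of these its interval lay above that of the next class in both. Levels are UMIs per 1000000 mouse UMIs of the same cells, written CPM. Since 3′ UMIs count molecules, they were not divided by gene length.

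**Figure D1:**
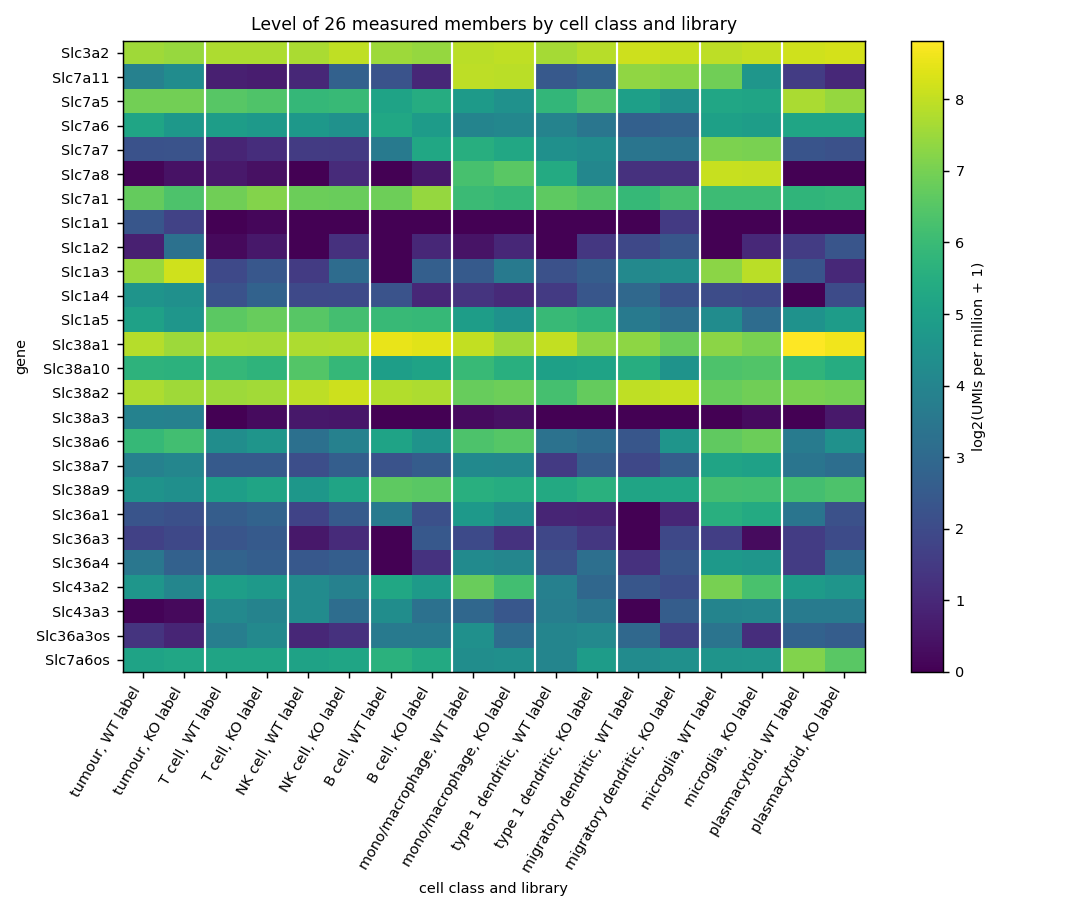
Level of the 26 measured members, as log2(CPM + 1) by colour, in the 9 classes (columns, each with the library labelled wild type on the left and the library labelled knockout on the right). Slc3a2, Slc38a1 and Slc38a2 are bright in every class, while Slc7a11, Slc7a8, Slc7a7 and Slc1a3 are bright in a few. Slc38a3 stands out from the other classes in tumour-like cells alone, at a low level.

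Slc3a2, the heavy chain, was among the most even members. It was highest in plasmacytoid-like cells at 289 and 303 CPM and lowest in B cell-like cells at 184 and 172. Between these lay migratory dendritic-like cells at 285 and 267, microglia-like cells at 242 and 261, macrophage-like cells at 238 and 252, NK cell-like cells at 209 and 248, T cell-like cells at 214 and 209, type 1 dendritic-like cells at 199 and 233 and tumour-like cells at 189 and 175. The whole range was under 2-fold in each library, and many neighbours in this order had overlapping intervals. The light chains that pair with it were not even at all. Their summed UMIs were 2.44 and 1.82 times those of Slc3a2 in microglia-like cells, 1.72 and 1.63 times in macrophage-like cells, 0.922 and 0.974 times in tumour-like cells and 0.409 and 0.367 times in NK cell-like cells.

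Slc7a11, the cystine and glutamate exchanger, was highest in macrophage-like cells, followed by migratory dendritic-like cells. Its level was 247 and 241 CPM in macrophage-like cells (95% intervals 237 to 256 and 234 to 249) and 163 and 153 in migratory dendritic-like cells (135 to 196 and 137 to 170.4). Microglia-like cells held 119 and 23.9 and tumour-like cells 13.8 and 18.4. The tumour-like level was 5.60% and 7.63% of that in macrophage-like cells. T cell-like, NK cell-like, B cell-like, type 1 dendritic-like and plasmacytoid-like cells all stayed under 20% of the macrophage-like level, at 0.705 and 0.62, 0.96 and 5.70, 3.76 and 0.971, 4.49 and 5.84 and 1.97 and 1.006. In NK cell-like cells of the library labelled knockout 21 of the 25 UMIs came from 1 cell. Among macrophage-like cells the gene was widespread: after thinning each cell to 2000 UMIs, 29.4% and 29.3% had a Slc7a11 UMI (64.8% and 62.8% before thinning), against 0% and 0.0669% of T cell-like cells (0.664% and 0.664% before), whose median depth was 7583 and 8557 UMIs against 15507 and 13431. The 0 of 596 thinned T cell-like cells of the library labelled wild type allow a share of up to 0.503% of cells with a UMI at this depth, which is no limit on cells that express the gene.

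In GRCm38 the gene Slc7a11 runs from 49892526 to 50443614 on chromosome 3, minus strand. Its promoter is shown because stress genes of amino acid shortage carry the composite element TGATGNAA, bound by Atf4, and the RefSeq window of Slc7a11 (GRCm38.p6) held it on both strands. Capitals mark the matches, whose first bases lie 66 and 47 bases before the start. The second, in capitals as TTGCATCA, reads on the opposite strand. Slc7a7, the light chain that follows the microglia-like class, held a match in 2 of its windows, and the one with a match 243 bases before its start is printed for comparison. Both are the 250 bases before a start on the minus strand, written 5′ to 3′ along the gene.

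Slc7a11, chr3:50443614-50443863: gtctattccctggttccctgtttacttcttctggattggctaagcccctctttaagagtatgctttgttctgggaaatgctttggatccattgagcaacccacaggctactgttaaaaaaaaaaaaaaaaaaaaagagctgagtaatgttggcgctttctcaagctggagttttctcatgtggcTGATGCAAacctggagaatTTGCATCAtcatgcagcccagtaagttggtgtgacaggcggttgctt
Slc7a7, chr14:54417703-54417952: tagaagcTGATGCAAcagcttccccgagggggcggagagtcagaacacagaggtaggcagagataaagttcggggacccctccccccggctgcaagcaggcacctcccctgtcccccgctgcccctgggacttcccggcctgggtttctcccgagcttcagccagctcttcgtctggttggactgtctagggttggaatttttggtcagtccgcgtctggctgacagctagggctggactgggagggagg

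RefSeq windows of 300 bases, from 250 before to 50 after a start, were found for 34 of the 44 members, 45 windows in all. TGATGNAA on either strand was present in 4 of the 45 (8.89%), those of Slc1a4, Slc7a11 and Slc7a7, and in 3.97% of all 32851 promoter windows. The antioxidant element TGACNNNGC, bound by Nfe2l2 and its partners, was present in 7 of the 45 (15.6%) and in 12.4% of all windows. No match of this element lay in the Slc7a11 window, and no 2 matches overlapped in the windows printed. A match is a description of letters and neither a bound site nor a cause.

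Slc7a8 and Slc7a7 were highest in microglia-like cells. Slc7a8, which exchanges neutral amino acids, stood at 271 and 259.7 CPM there and at 75.7 and 94.2 in macrophage-like cells, with 41.3 and 15.9 in type 1 dendritic-like cells and at most 1.38 in the 6 other classes. After thinning to 2000 UMIs, 45.7% and 38.3% of microglia-like cells had a Slc7a8 UMI (79.01% and 84.7% before), and 0% and 0.134% of T cell-like cells (0.332% and 0.332% before). Slc7a7 stood at 133 and 130.3 in microglia-like cells, 45.6 and 37.6 in macrophage-like cells and 11.3 and 36.9 in B cell-like cells. For both genes the interval in microglia-like cells lay above that in macrophage-like cells in both libraries. Within the microglia-like class, cells with no UMI of 7 macrophage genes (Ms4a7, Ccr2, Arg1, Mmp12, Adamdec1, Ccl24 and H2-M2) had more Slc7a8, at 348 and 309, than the cells with at least 1, at 168 and 211.

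Slc7a5, the leucine and tryptophan exchanger of growing cells, was highest in plasmacytoid-like cells at 207 and 170.1 CPM, followed by tumour-like cells at 122 and 122 and T cell-like cells at 90.8 and 82.5. NK cell-like cells held 57.6 and 61.1, type 1 dendritic-like cells 56.6 and 80.96, B cell-like cells 33.8 and 42.7, microglia-like cells 36.5 and 34.2, migratory dendritic-like cells 30.4 and 20.7 and macrophage-like cells 26.7 and 21.1. The last was 12.9% and 12.4% of the plasmacytoid-like level. In T cell-like cells the gene was highest in dividing and CD8 cells: dividing T cells held 136 and 125, CD8 T cells 96.1 and 106, CD4 T cells 31.3 and 53.4 and Foxp3 T cells, the regulatory lineage, 35.1 and 32.4. Slc7a6 was lowest in migratory dendritic-like cells at 5.54 and 5.97 and stood at 37.6 and 27.7 in B cell-like, 35.4 and 35.2 in plasmacytoid-like, 34.9 and 25.03 in tumour-like and 28.9 and 25.9 in T cell-like cells.

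As shares of the UMIs of the 6 light chains, the leading light chain differed between classes and was the same in both libraries in 8 of the 9. Slc7a11 made up 60.2% and 58.8% in macrophage-like cells and 77.6% and 80.4% in migratory dendritic-like cells. Slc7a8 made up 45.9% and 54.5% in microglia-like cells, with Slc7a7 at 22.6% and 27.3%. Slc7a5 led in plasmacytoid-like cells at 83.3% and 81.1%, in T cell-like cells at 74.5% and 74.5%, in tumour-like cells at 69.9% and 71.8% and in NK cell-like cells at 67.4% and 67.2%, with Slc7a6 second in these 4 classes. In type 1 dendritic-like cells Slc7a5 made up 41.2% and 61.4% and Slc7a8 30.1% and 12.03%. In B cell-like cells Slc7a6 led in 1 library and Slc7a5 in the other, at 43.5% and 25.4% and 39.1% and 39.3%, with Slc7a7 at 13.04% and 33.9%, but these shares rest on 23 and 224 light chain UMIs. Slc7a10, the sixth, was at 0 in 15 of the 18 class and library pairs. In microglia-like cells the share of Slc7a11 was 20.1% and 5.01%.

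**Figure D2:**
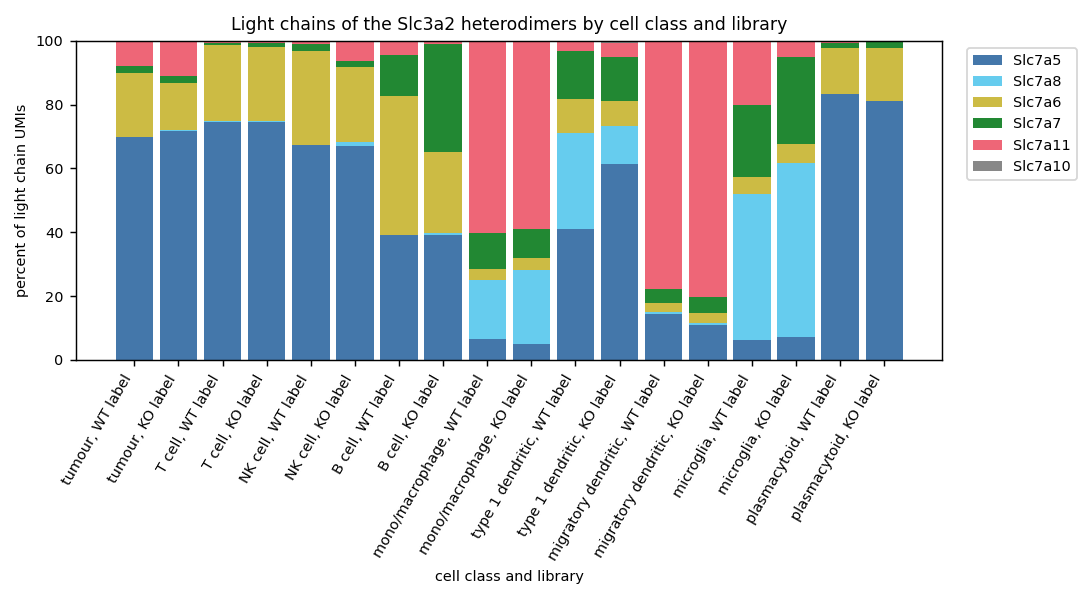
Make-up of the light chain UMIs (percent, vertical axis) in each class, with the library labelled wild type on the left and the library labelled knockout on the right of each pair; each colour is 1 light chain. Slc7a11 takes over 50% in macrophage-like and migratory dendritic-like cells, Slc7a8 the most in microglia-like cells, and Slc7a5 over 60% in plasmacytoid-like, tumour-like, NK cell-like and T cell-like cells.

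Slc7a1, the main importer of arginine and lysine, was measured in every class. It was highest in lymphocytes, at 119 and 146 CPM in T cell-like, 116 and 170.4 in B cell-like and 113 and 111 in NK cell-like cells. Tumour-like cells held 105 and 81.1, type 1 dendritic-like cells 97.9 and 85.1, migratory dendritic-like cells 59.5 and 75.4, microglia-like cells 65.7 and 64.9, macrophage-like cells 63.1 and 58.2 and plasmacytoid-like cells 53.1 and 56.9. The plasmacytoid-like, macrophage-like, microglia-like and migratory dendritic-like classes were thus the 4 lowest in both libraries. Slc7a3, Slc7a4 and Slc7a14, the other members of this group, were never measured.

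Slc1a3, a glutamate importer, had 2 centres. It stood at 176 and 291 CPM in tumour-like cells and at 154 and 240.3 in microglia-like cells, and in the library labelled wild type their intervals overlapped (170.3 to 182 and 130.5 to 181). Every other class was under 20% of the tumour-like level: migratory dendritic-like cells at 16.6 and 18.8, macrophage-like cells at 4.65 and 11.3, T cell-like cells at 2.82 and 4.28, NK cell-like cells at 1.92 and 7.75, B cell-like cells at 0 and 5.34, type 1 dendritic-like cells at 3.59 and 5.01 and plasmacytoid-like cells at 3.93 and 1.006. After thinning, 30.1% and 42.4% of tumour-like cells had a Slc1a3 UMI (85.8% and 92.7% before), and 28.4% and 32.3% of microglia-like cells (59.3% and 76.9% before). Of T cell-like cells 0.336% and 0.736% did (1.83% and 4.19% before). In microglia-like cells without UMIs of the 7 macrophage genes the level was 208 and 301, and none of 7 astrocyte genes (Aqp4, Gja1, Gfap, Fgfr3, Ntsr2, Agt and Gjb6) had a UMI in this class in the library labelled wild type, with 3 UMIs in all in the other. Barcodes with under 500 genes, which were not kept, held 216 and 429.

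Slc1a2, the other large glutamate importer of astrocytes, was close to absent from the compared classes. It was measured in tumour-like cells alone, at 0.698 and 8.80 CPM. Elsewhere it stood at 0.176 and 0.496 in T cell-like, 0 and 1.37 in NK cell-like, 0 and 0.971 in B cell-like, 0.379 and 0.974 in macrophage-like and 0 and 1.67 in type 1 dendritic-like cells. Migratory dendritic-like cells held 2.77 and 4.14, microglia-like cells 0 and 1.011 and plasmacytoid-like cells 1.97 and 4.03. Slc1a1, a glutamate carrier that also takes cysteine, was likewise measured in tumour-like cells alone, at 4.14 and 2.33. Slc1a6 and Slc1a7 were never measured.

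The neutral amino acid carriers of the same family divided between lymphocytes and tumour. Slc1a5, an exchanger that brings in glutamine, was highest in T cell-like cells at 95.7 and 109 CPM and NK cell-like cells at 91.7 and 72.1, followed by B cell-like cells at 60.1 and 59.7 and type 1 dendritic-like cells at 60.2 and 53.4. Tumour-like cells held 32.3 and 23.5, macrophage-like cells 28.9 and 21.5, plasmacytoid-like cells 21.6 and 28.7, microglia-like cells 18.8 and 7.69 and migratory dendritic-like cells 11.1 and 8.27. Slc1a4, which carries serine and alanine, was a tumour-like gene at 22.7 and 20.5, with its interval (20.7 to 24.9 and 18.9 to 22.2) above that of every other class in both libraries except the B cell-like cells of the library labelled wild type, where 1 UMI gave an upper limit of 20.9. Outside tumour-like cells it ranged from 0 to 6.92 in the library labelled wild type and from 0.971 to 5.83 in the other: 3.70 and 5.83 in T cell-like, 2.88 and 2.96 in NK cell-like, 3.76 and 0.971 in B cell-like, 1.52 and 1.10 in macrophage-like, 1.80 and 4.17 in type 1 dendritic-like, 6.92 and 3.68 in migratory dendritic-like, 3.13 and 2.83 in microglia-like and 0 and 3.02 in plasmacytoid-like cells.

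Slc38a1 reached the highest level of any member in any class. It stood at 451 and 391 CPM in plasmacytoid-like cells and at 368 and 343 in B cell-like cells, whose intervals overlapped in both libraries. The remaining classes held 258 and 156 (type 1 dendritic-like), 254 and 183 (macrophage-like), 225 and 182 (tumour-like), 212 and 215 (NK cell-like), 204 and 198 (T cell-like), 159 and 111 (migratory dendritic-like) and 154 and 131 (microglia-like). Slc38a2, its amino acid-responsive relative, did not follow the same order: it was high in migratory dendritic-like cells at 248 and 268, NK cell-like cells at 243 and 283, B cell-like cells at 222 and 212, tumour-like cells at 209.8 and 189.5 and T cell-like cells at 184 and 191. It was lower in plasmacytoid-like cells at 129.8 and 125, microglia-like cells at 108 and 120.4, macrophage-like cells at 108 and 116 and type 1 dendritic-like cells at 72.7 and 105. Glutamine importers were thus abundant in every class, with different members leading.

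Slc38a3, a glutamine carrier known from astrocytes and liver, was measured in tumour-like cells alone at 13.96 and 13.8 CPM, with at most 0.503 in any other class. Slc38a9 was highest in B cell-like cells at 97.7 and 94.2 and lowest in tumour-like cells at 22.2 and 20.1, with microglia-like cells at 70.9 and 69.4 and plasmacytoid-like cells at 70.8 and 81.5. The microglia-like class was highest for 5 further carriers: Slc38a7, a lysosomal glutamine exporter, at 34.4 and 32.4 against 17.3 and 16.3 in macrophage-like cells, and Slc36a1, a proton-coupled carrier of small amino acids, at 45.9 and 41.1 against 25.5 and 19.2. For these 2 the intervals did not overlap in either library. Slc38a6 at 100.1 and 113 against 81.6 and 89.4, Slc36a4 at 26.1 and 24.1 against 17.6 and 15.6 and Slc43a2, a sodium-independent carrier of large neutral amino acids, at 127 and 77.9 against 109.5 and 70.7 had the same order with overlapping intervals in at least 1 library. Slc7a6os, which is no carrier, was highest in plasmacytoid-like cells at 142 and 93.1.

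Slc38a10 was spread over the classes, at 87.9 and 57.01 CPM in NK cell-like, 80.3 and 85.6 in microglia-like, 60.3 and 46.7 in macrophage-like, 57.5 and 52.3 in T cell-like and 50.7 and 50.1 in tumour-like cells. Slc43a3 was low everywhere, with 16.9 and 14.5 in T cell-like, 14.6 and 15.4 in microglia-like and 6.73 and 4.20 in macrophage-like cells, and 0.0499 and 0.177 in tumour-like cells. Slc36a3 was measured in tumour-like cells, as the sum of 45 and 78 UMIs, and nowhere else. Its level was nonetheless highest in T cell-like cells in both libraries, at 4.05 and 4.65 CPM. Of the 18 genes never measured, the glutamine carrier Slc38a5 had the most UMIs over all kept cells, 101 and 96. It was followed by Slc7a14 with 34 and 98, Slc43a1 with 33 and 68, Slc7a4 with 42 and 56, Slc7a10, a light chain known from neurons, with 6 and 84, and Slc38a11 with 24 and 66. Slc7a3 had 26 and 50, Slc36a2 25 and 25, Slc7a15 13 and 35, Slc1a7 6 and 6, Slc1a6 3 and 6 and Slc38a8 2 and 2. The kidney heavy chain Slc3a1 had 13 and 41, while its partner Slc7a9, the light chain Slc7a13 and the antisense Slc36a1os had 1 UMI each in all. At this depth these genes could not be compared.

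**Figure D3:**
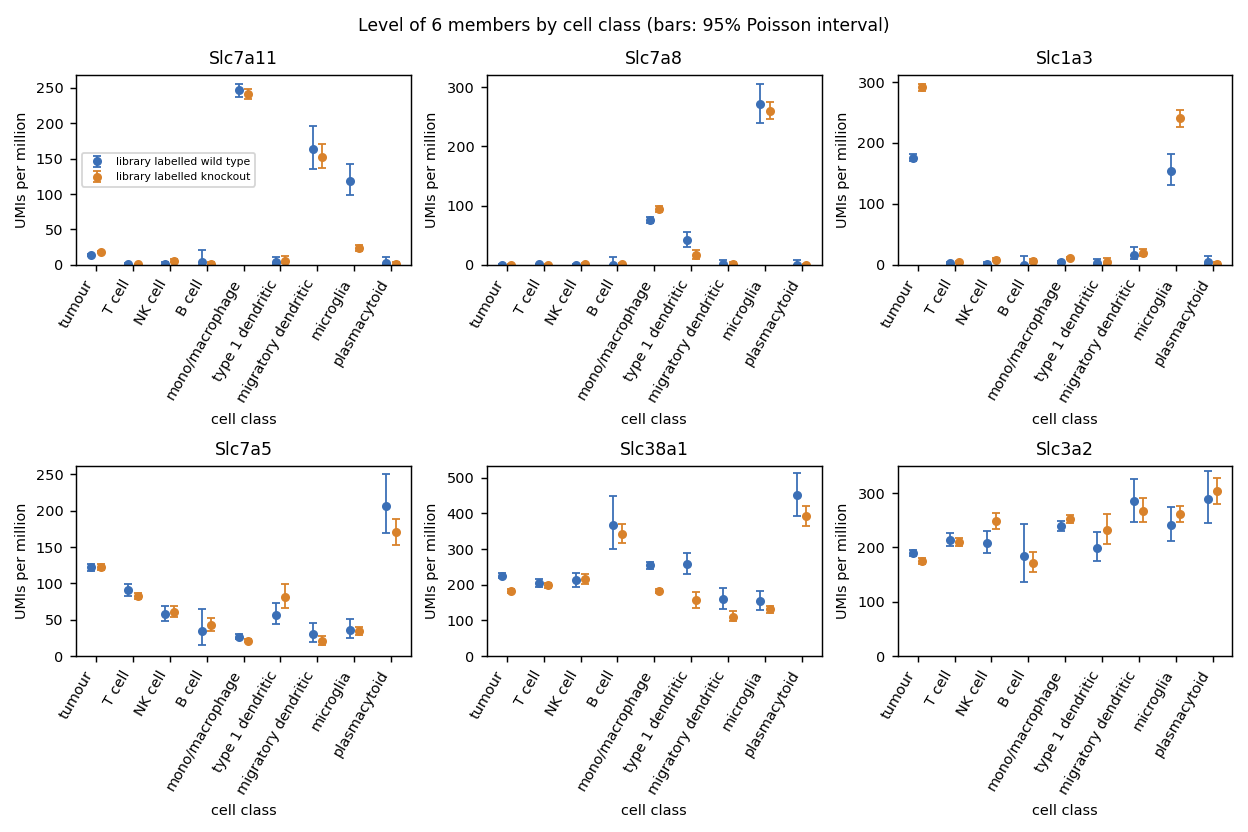
CPM (vertical axes, from 0) of 6 members in the 9 classes in the library labelled wild type (blue) and the library labelled knockout (orange), with 95% Poisson intervals. Slc7a11 stands out in macrophage-like and migratory dendritic-like cells, Slc7a8 in microglia-like cells and Slc1a3 in tumour-like and microglia-like cells, while Slc3a2 stays between 172 and 303.

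Of 117 pairs of a measured member and a class, 5 (4.27%) were at least 1.5-fold higher in the library labelled knockout and 11 (9.40%) at least 1.5-fold lower. Of all 61189 measured pairs of a gene and a class 6.79% were higher and 5.79% lower. Slc3a2 lay between -0.11 and 0.25 on the log2 scale (knockout label over wild type label) over the 9 classes and Slc38a2 between -0.15 and 0.53, while Slc38a1 was negative in 8 classes and reached -0.72. The members called were the glutamate carriers Slc1a1, Slc1a2 and Slc1a3, the neutral carriers Slc1a4 and Slc43a2, the purine base carrier Slc43a3, the cystine carrier Slc7a11, Slc36a4, Slc38a1, Slc38a10 and the 2 genes that are no carriers, Slc36a3os and Slc7a6os. Slc1a3 was called higher in 3 classes and Slc43a2 lower in 3 classes, and no member was called higher in 1 class and lower in another.

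**Figure D4:**
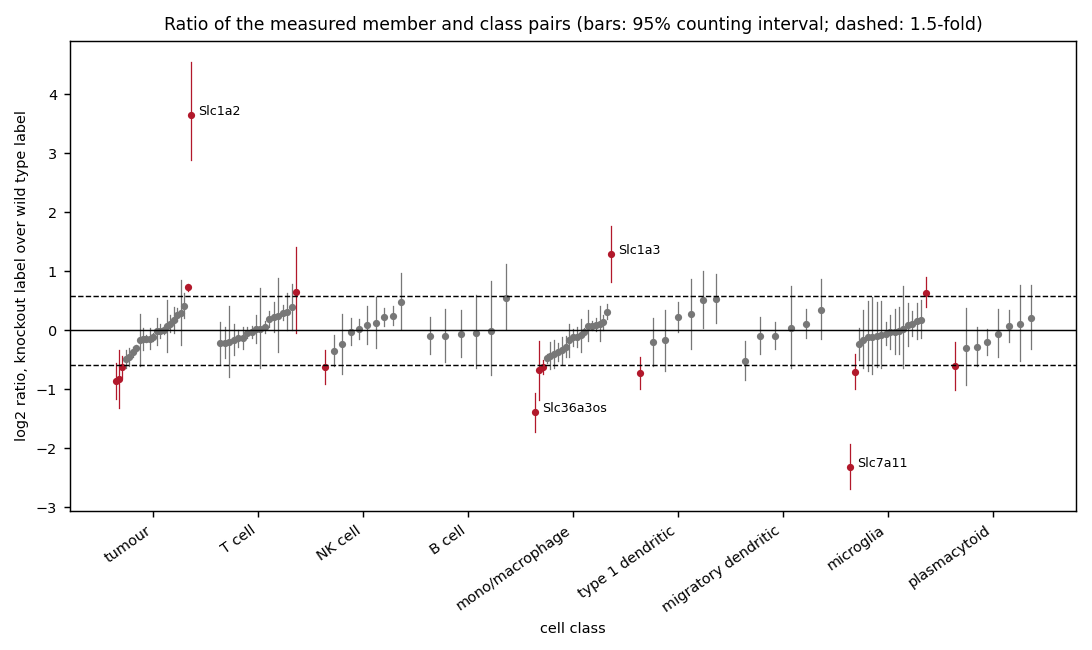
Log2 ratio of CPM, knockout label over wild type label, of the 117 measured pairs of member and class (points, ordered within each class) with 95% counting intervals. Red points lie past 1.5-fold (dashed lines), 5 above and 11 below, and the named points are those beyond 1.2 on the log2 scale.

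In tumour-like cells 2 of 23 measured members were higher, where 10.3% of all measured genes were, and 3 were lower, where 7.55% were. Their median log2 ratio was -0.11, against 0.00 over all measured genes. Slc1a3 was higher in the library labelled knockout, at 176 and 291 CPM from 3532 and 8239 UMIs, a log2 ratio of 0.73 (95% interval 0.67 to 0.78). The subsets of this class were not equally common: dividing tumour cells made up 47.9% and 25.6% and cells with Col2a1, Acot1 or Enpp2 (at least 2 of them) 24.9% and 59.1%. Slc1a3 was 150.5 and 269 in dividing cells (log2 ratio 0.84, 95% interval 0.76 to 0.92), 135 and 306 in the remaining unmarked cells (1.18, 95% interval 0.97 to 1.39), 263 and 307 in the Col2a1 and Enpp2 cells (0.22, 95% interval 0.12 to 0.33) and 213 and 244 in cells with Cntn1, Nts or Sncaip (0.20, 95% interval -0.07 to 0.46). The value was thus higher under the knockout label, with an interval that excludes no difference, in 3 of the 4 subsets, and the interval of the Cntn1 and Nts cells includes no difference. With the subsets weighted alike the log2 ratio was 0.57, just under 1.5-fold. Marker genes of other cell types also differed between the labels in this class. The 7 astrocyte genes summed to 5.98 and 23.3 CPM in the unmarked cells, 6.396 and 12.7 in dividing cells, 10.9 and 16.2 in the Col2a1 and Enpp2 cells and 5.89 and 8.77 in the Cntn1 and Nts cells. Without cells that had an astrocyte gene UMI the log2 ratio of Slc1a3 over the class was 0.68. The 8 microglia genes P2ry12, Tmem119, Sall1, Gpr34, P2ry13, Slc2a5, Crybb1 and Fcrls summed to 61.2 and 4.63 CPM over the class, all 8 present in both libraries. In the unmarked cells they summed to 37.5 and 3.89, with only 4 of the 8 present in each library. Slc7a8, highest in microglia-like cells, had 2 and 10 UMIs in tumour-like cells. Without cells that had a UMI of any microglia gene, which left 459 and 852 cells, the log2 ratio of Slc1a3 was 0.56, under 1.5-fold. The part of astrocyte or microglia RNA in the difference within the unmarked cells was not tested.

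Slc1a2 had the widest ratio of all pairs, and it rested on few cells. Tumour-like cells held 14 and 249 Slc1a2 UMIs, a log2 ratio of 3.66 (95% interval 2.88 to 4.55), but 24 of 943 cells carried the 249 UMIs of the library labelled knockout and 5 of them carried 84.7%. In 4 cells with 3 or more of the 7 astrocyte genes lay 72 UMIs. Summed over the class these genes stood at 7.13 and 15.2 CPM, with 5 and 6 of the 7 present and Gjb6 at 0 in both. Without every tumour-like cell that had a UMI of an astrocyte gene the log2 ratio was 1.54. The 3 cells that passed the astrocyte gate, all in the library labelled knockout, held 199 Slc1a2 UMIs. Cells left out because they passed several gates held 261 and 1034 UMIs, of which 241 and 899 lay in the 6 and 17 cells with 3 or more astrocyte genes. In every other class Slc1a2 was also higher under the knockout label, from too few UMIs to be measured. Barcodes with under 500 genes, which were not kept, held it at 2.47 and 74.5 CPM from 4 and 79 UMIs. The part of astrocyte RNA, or of the RNA in these barcodes, in the tumour-like difference was not tested further.

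The other tumour-like calls were of low genes. Slc36a4, a carrier with high affinity for proline and tryptophan, stood at 10.3 and 5.66 CPM (log2 ratio -0.87, 95% interval -1.17 to -0.56), Slc1a1 at 4.14 and 2.33 (-0.83, 95% interval -1.32 to -0.34) and Slc43a2 at 23.6 and 15.3 (-0.62, 95% interval -0.81 to -0.43). Slc36a4 and Slc43a2 were highest in microglia-like cells, and the 8 microglia genes were lower in the library labelled knockout here, in dividing tumour cells as well (74.8 and 5.89 CPM). Without cells that had a microglia gene UMI the log2 ratios were -0.88 for Slc36a4, -0.64 for Slc43a2 and -0.90 for Slc1a1, all past 1.5-fold. With the subsets weighted alike Slc1a1 stood at -0.23, no longer past 1.5-fold, while Slc36a4 stood at -0.997. The main importers that were not past 1.5-fold were Slc7a11 at 0.42 (95% interval 0.20 to 0.63), Slc1a5 at -0.45, Slc7a1 at -0.38, Slc38a1 at -0.31, Slc1a4 at -0.15, Slc38a2 at -0.15, Slc3a2 at -0.11 and Slc7a5 at 0.00. Slc7a11 differed between subsets: dividing cells held 7.36 and 19.3 (log2 ratio 1.39, 95% interval 1.03 to 1.76), the Col2a1 and Enpp2 cells 17.4 and 16.4, the unmarked cells 27.2 and 28.5 and the Cntn1 and Nts cells 34.9 and 11.7. Slc7a1 stood at 94.3 and 57.1 in the Col2a1 and Enpp2 cells (-0.72, 95% interval -0.91 to -0.54) and at 102 and 106 in dividing cells.

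In macrophage-like cells 1 of 21 measured members was higher, where 6.56% of all measured genes were, and 3 were lower, where 5.66% were. The median log2 ratio of the members was -0.12 and that of all measured genes -0.04. Slc43a2 was the best counted of them, at 109.5 and 70.7 CPM from 1155 and 1162 UMIs, a log2 ratio of -0.63 (95% interval -0.75 to -0.51). In the library labelled knockout it was 81.3 in cells with a Y-linked UMI and 67.8 in cells with Xist, against 112 in cells with a Y-linked UMI of the library labelled wild type. Between the cells with Y-linked UMIs alone the log2 ratio was -0.46, and with the subsets weighted alike it was -0.57, neither past 1.5-fold. Slc43a3 stood at 6.73 and 4.20 (-0.68, 95% interval -1.18 to -0.18), with 2.42 in cells with a Y-linked UMI and 4.65 in cells with Xist of the library labelled knockout, against 6.97 in the former cells of the other library. Its log2 ratio was -0.19 with the subsets weighted alike.

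Slc36a3os, the antisense gene within Slc36a3, was at 20.3 and 7.73 CPM in macrophage-like cells (-1.39, 95% interval -1.72 to -1.07). Slc36a3 was counted apart from it, with 31 and 24 UMIs in the class. The sources used here do not say whether strand was used in the counting. It can therefore not be told whether some UMIs counted for Slc36a3os came from Slc36a3. In the library labelled knockout it stood at 2.08 in cells with a Y-linked UMI and 8.81 in cells with Xist, against 20.2 in the former cells of the other library. Slc1a3 was higher at 4.65 and 11.3 (1.28, 95% interval 0.82 to 1.77), but this level was only 2.64% and 3.89% of the tumour-like one. It was 8.65 in cells with a Y-linked UMI and 11.99 in cells with Xist of the library labelled knockout, against 4.85 in the former cells of the library labelled wild type. The difference was widest in the macrophage-like cells without subset markers, at 3.93 and 29.3 (2.90, 95% interval 1.99 to 3.95) from 11 and 94 UMIs. The Ly6c2 cells held 3.16 and 7.72 from 4 and 27 UMIs, with an interval that includes no difference (1.29, 95% interval -0.23 to 3.26), the Mmp12 and Adamdec1 cells 3.49 and 3.31 and the Arg1 cells 14.4 and 10.5. In the unmarked cells the 8 microglia genes summed to 106 and 198 CPM, against 95.6 and 88.3 in the Mmp12 and Adamdec1 cells. Of the 8 genes 7 had UMIs in each library. Barcodes with under 500 genes, which were not kept, held Slc1a3 at 216 and 429 CPM. The part of microglia RNA, or of the RNA in these barcodes, in the macrophage-like Slc1a3 difference was not tested.

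Slc7a11 was close to equal between the labels over the whole class (log2 ratio -0.03, 95% interval -0.10 to 0.04) and less so in its subsets. Ly6c2 monocytes, the cells with a Ly6c2 UMI outside the other marked subsets, held 406 and 250.1 CPM (-0.70, 95% interval -0.86 to -0.54). Arg1 macrophages held 352 and 287 (-0.30, 95% interval -0.46 to -0.12). Mmp12 and Adamdec1 macrophages held 211 and 236 (0.16, 95% interval 0.04 to 0.28) and unmarked cells 204 and 175. Monocytes and Arg1 cells had the 2 highest levels in both libraries. Slc38a1 was lower in every one of these subsets in the library labelled knockout: 274 and 158 in Arg1 cells (-0.80, 95% interval -0.997 to -0.59), 270.4 and 212 in Mmp12 and Adamdec1 cells, 243 and 186 in unmarked cells and 193 and 169 in Ly6c2 cells. Over the class its log2 ratio was -0.48, short of 1.5-fold. The other main importers stood at -0.43 for Slc1a5, -0.34 for Slc7a5, -0.12 for Slc7a1, 0.10 for Slc38a2 and 0.08 for Slc3a2. Ly6c2 cells made up 17.98% and 27.2% of the class, Arg1 cells 13.3% and 32.4%, and Mmp12 and Adamdec1 cells 42.3% and 19.7%.

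**Figure D5:**
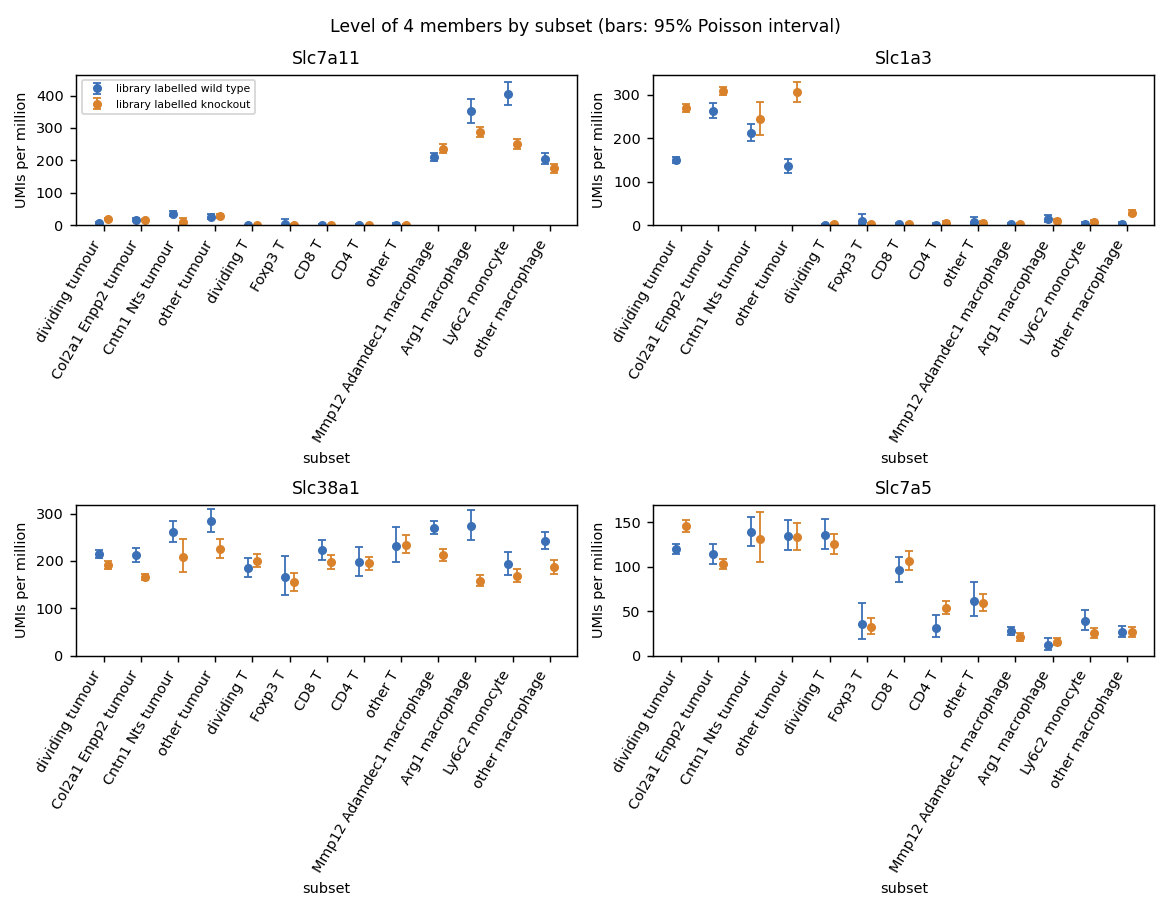
CPM (vertical axes, from 0) of 4 members in the 13 subsets of tumour-like, T cell-like and macrophage-like cells in the library labelled wild type (blue) and the library labelled knockout (orange), with 95% Poisson intervals. Slc7a11 is near 0 in T cells and highest in Ly6c2 monocytes and Arg1 macrophages, and Slc1a3 is higher in the library labelled knockout in dividing and unmarked tumour cells.

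In microglia-like cells 1 of 18 measured members was higher, where 4.9% of all measured genes were, and 2 were lower, where 5.51% were, with medians of -0.05 for the members and -0.04 for all genes. Slc7a11 stood at 119 and 23.9 CPM (-2.32, 95% interval -2.70 to -1.93), from 114 and 118 UMIs. In the library labelled wild type 1 cell held 61 of the 114 UMIs and 5 cells held 81.6%. Of the 114, 109 lay in the 21 of 81 cells with a UMI of at least 1 of the 7 macrophage genes, at 266 against 27.7 in the like cells of the other library. In the cells with none of these genes the direction turned, at 9.11 (95% interval 2.96 to 21.3, 5 UMIs) and 19.99 (14.8 to 26.4, 49 UMIs). Over the class it was 13.04 in cells with a Y-linked UMI and 27.2 in cells with Xist of the library labelled knockout, both below the 127 of the former cells in the other library.

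Slc1a3 was higher in microglia-like cells of the library labelled knockout, at 154 and 240.3 CPM (0.64, 95% interval 0.39 to 0.90). Its level there was 232 in cells with Xist and 339 in cells with a Y-linked UMI, both above the 153 of the latter cells in the library labelled wild type. Among cells with none of the macrophage genes the log2 ratio was 0.54, short of 1.5-fold. Slc43a2 stood at 127 and 77.9 (-0.71, 95% interval -1.01 to -0.40), with 81.8 in cells with a Y-linked UMI and 79.5 in cells with Xist against 137 in the former cells of the library labelled wild type. Its log2 ratio was -0.02 among cells with none of the macrophage genes. The 8 macrophage genes that served as the check (the 7 and Fcgr1) summed to 988 and 628 CPM in this class, all 8 present in both. Slc38a1 at -0.24, Slc38a2 at 0.15, Slc3a2 at 0.11, Slc7a5 at -0.09 and Slc7a1 at -0.02 were not past 1.5-fold, and neither was Slc7a8 at -0.06 or Slc7a7 at -0.03.

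In T cell-like cells 1 of 18 measured members was higher, where 3.93% of all measured genes were, and none was lower, where 2.62% were. The medians were 0.02 for the members and -0.03 for all genes. The one was Slc1a4 at 3.70 and 5.83 CPM, whose interval includes no difference (0.66, 95% interval -0.04 to 1.41). It was 6.47 in cells with Xist and 3.71 in cells with a Y-linked UMI of the library labelled knockout, against 4.16 in the latter cells of the library labelled wild type, where the direction turns. The large importers were close to even: Slc7a1 at 0.30, Slc1a5 at 0.19, Slc38a2 at 0.05, Slc3a2 at -0.03, Slc38a1 at -0.04 and Slc7a5 at -0.14. CD4 T cells went against the class for Slc7a5, at 31.3 and 53.4 (0.77, 95% interval 0.18 to 1.42) from 26 and 206 UMIs, while CD8 T cells stood at 0.15 and dividing T cells at -0.12.

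In NK cell-like cells none of 10 measured members was higher, where 6.85% of all measured genes were, and 1 was lower, where 7.77% were: Slc38a10 at 87.9 and 57.01 CPM (-0.62, 95% interval -0.90 to -0.34). In the library labelled knockout it was 58.8 in cells with a Y-linked UMI and 55.6 in cells with Xist, against 89.8 in the former cells of the other library. Its log2 ratio was short of 1.5-fold with classes by highest marker share, 1 more marker per gate or the mean over cells, at -0.55 where weakest. The main importers stood between -0.35 (Slc1a5) and 0.25 (Slc3a2), with Slc38a2 at 0.22, Slc7a5 at 0.09, Slc38a1 at 0.02 and Slc7a1 at -0.03. In B cell-like cells none of 6 was past 1.5-fold in either direction, where 9.1% of all measured genes were higher and 7.65% lower. Slc7a1 came nearest at 0.55 (95% interval 0.02 to 1.13).

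In type 1 dendritic-like cells none of 7 measured members was higher, where 6.89% of all measured genes were, and 1 was lower, where 5.61% were: Slc38a1, at 258 and 156 CPM (-0.72, 95% interval -0.997 to -0.45) from 62 and 52 cells. It was 158 in cells with Xist of the library labelled knockout and 261 in cells with a Y-linked UMI of the other, and too few cells of the former library had a Y-linked UMI alone. With classes by highest marker share, 1 more marker per gate or the mean over cells, its log2 ratio was short of 1.5-fold, at -0.32 where weakest. Slc38a2 stood at 0.53 (95% interval 0.12 to 0.95) and Slc7a5 at 0.52 (95% interval 0.04 to 0.998) in the same cells, both higher but short of 1.5-fold. In migratory dendritic-like cells none of 6 was past 1.5-fold, where 5.9% of all measured genes were higher and 5.22% lower. Slc38a1 was again the lowest at -0.52 (95% interval -0.85 to -0.19), and Slc7a11, the leading light chain there, stood at -0.09. In plasmacytoid-like cells none of 8 was higher, where 5.65% of all measured genes were, and 1 was lower, where 4.57% were. This was Slc7a6os, at 142 and 93.1 (-0.61, 95% interval -1.01 to -0.19). It stood at 57.9 in cells with a Y-linked UMI and 102 in cells with Xist of the library labelled knockout, and at 145 in the former cells of the other library. Slc38a1 thus had a negative log2 ratio in 8 of the 9 classes, from -0.72 to -0.04, the exception being NK cell-like cells at 0.02.

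With 2-fold as the rule 4 of the 117 pairs were left, 2 higher and 2 lower, where 1.94% and 1.46% of all measured pairs of a gene and a class were. In tumour-like cells Slc1a2 was called higher and no member lower, where 3.41% and 2.68% of all measured genes were higher and lower. In macrophage-like cells Slc1a3 was higher and Slc36a3os lower, beside 2.21% and 1.94% of all genes. In microglia-like cells Slc7a11 was lower and none higher, beside 0.98% and 1.15%. No member was called in the other 6 classes, where the shares of all genes higher and lower were 1.06% and 0.427% (T cell-like), 1.41% and 1.76% (NK cell-like), 2.75% and 0.98% (B cell-like), 2.07% and 1.2% (type 1 dendritic-like), 1.39% and 0.908% (migratory dendritic-like) and 1.23% and 0.321% (plasmacytoid-like).

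Genes around the carriers were counted by the same 1.5-fold rule, beside the shares of all genes given above for each class. Their ratios are given over whole classes, not by subset and not by Xist or Y-linked UMIs. The part of subset make-up or of sex in these differences was not tested. Of 20 genes of the amino acid response driven by Atf4, 7 of 18 measured in macrophage-like cells were higher in the library labelled knockout and 1 lower, with a median of 0.16. Among them were Mthfd2, a mitochondrial folate enzyme, at 29.6 and 51.6 CPM (0.80) and Nupr1, a stress-induced chromatin protein, at 46.8 and 80.3 (0.78). The subsets of the macrophage-like class were not equally common. Arg1 cells made up 13.3% and 32.4% of it, and Mmp12 and Adamdec1 cells 42.3% and 19.7%. In tumour-like cells 0 of 20 were higher and 1 lower, Trib3, at 104 and 63.2 (-0.72). In NK cell-like cells 1 of 12 was higher and 3 lower, Phgdh, the first enzyme of serine synthesis, among them at 108 and 51.8 (-1.05). The counts were 2 higher and 0 lower of 17 in T cell-like, 3 and 0 of 12 in microglia-like, 3 and 0 of 5 in type 1 dendritic-like, 0 and 2 of 4 in B cell-like, 1 and 0 of 5 in migratory dendritic-like and 0 and 0 of 6 in plasmacytoid-like cells. The median over the 12 in microglia-like cells was -0.15.

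Of 14 genes of glutathione and the Nfe2l2 response, which uses the cystine that Slc7a11 brings in, none was higher in any of the 9 classes. In microglia-like cells 4 of 10 were lower, among them Gclc, the rate-limiting enzyme of glutathione synthesis, at 121 and 48.7 CPM (-1.31) and Txnrd1, thioredoxin reductase, at 93.8 and 51.6 (-0.86). The macrophage genes summed to 988 and 628 CPM in this class. No ratio of the genes around the carriers was recomputed without cells that held macrophage genes, so their part in these differences was not tested. In NK cell-like cells 4 of 10 were lower, in tumour-like cells 2 of 13, in macrophage-like cells 1 of 13 (Hmox1, heme oxygenase, at 84.2 and 49.2), and in type 1 and migratory dendritic-like cells 1 each of 6 and 9. T cell-like, B cell-like and plasmacytoid-like cells had none of 12, 7 and 7. Of 18 genes through which mTORC1 senses amino acids, 1 was higher in migratory dendritic-like cells (Depdc5, 0.61) and 1 lower in type 1 dendritic-like cells (Rheb, -0.61), and none was called in the other 7 classes, where 9 to 18 were measured.

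Of 11 glutamine and glutamate enzymes 3 of 9 were lower in tumour-like cells, 3 of 8 in NK cell-like cells (Ppat at 50.9 and 30.1 CPM and Got2 at 63.4 and 37.9), 1 of 8 in macrophage-like cells (Gfpt1 at 124 and 75.8) and 1 of 8 in T cell-like cells, with none higher in any class. Of 11 enzymes of branched-chain amino acids and tryptophan, 1 was higher in each of tumour-like (of 5 measured), B cell-like (of 2), migratory dendritic-like (of 2) and type 1 dendritic-like cells (of 1), and 1 was lower in each of NK cell-like (of 4), macrophage-like (of 6) and microglia-like cells (of 5), with none of 6 called in T cell-like and none of 3 in plasmacytoid-like cells. Il4i1, a secreted amino acid oxidase, stood at 321 and 519 in migratory dendritic-like cells (0.69), whose gate uses this gene, and Kynu, kynureninase, at 74.5 and 247 in type 1 dendritic-like cells (1.73). Of 20 carriers of other families 1 of 16 was higher in tumour-like cells and 2 of 11 were higher and 1 lower in T cell-like cells. In macrophage-like (of 14), migratory dendritic-like (of 4) and plasmacytoid-like cells (of 5) 1 each was higher, 1 each was lower in NK cell-like cells (of 5) and microglia-like cells (of 10), and none was called in B cell-like (of 2) and type 1 dendritic-like cells (of 4). Slc16a10, which exports aromatic amino acids, was lower in NK cell-like cells at 161 and 82.1 (-0.97), and Slc6a6, the taurine carrier, in microglia-like cells at 270.0 and 174 (-0.63).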

How the data were processed

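The authors deposited gene by barcode matrices of UMI counts, whole numbers with no normalization, per the file headers. The submitters' processing notes name Cell Ranger 7.1.0, Seurat 5.0.2 and mm10, and do not give Seurat's role. Per the labels, single cells came from dissociated brain with a 10x Genomics 3′ kit. From the counts, barcodes of 500 or more mouse genes with mitochondrial UMIs at or under 10% were used, at a median of 12522.5 and 11071 UMIs, and put in a class when 3 or 4 of its markers had a UMI. Cells that passed several gates with close shares of markers were left out. UMIs were summed per class and library and divided by the class total, per 1000000 UMIs (CPM). Levels have exact Poisson 95% intervals, and ratios have exact conditional binomial intervals. Doublets were left in, and leaving out high Scrublet scores was an alternative. Promoter windows and symbols came from RefSeq tables. Named in every class were Slc3a2, Slc7a5, Slc7a11, Slc7a1, Slc1a5, Slc1a4, Slc1a3, Slc1a2, Slc38a1 and Slc38a2, with up to 6 further members in each direction past 1.5-fold whose interval excludes no difference, and members with the same highest class in both libraries at 20 CPM. From the other lists the 2 highest and 2 lowest ratios among genes with at least 50 CPM in 1 library could be named, and others were named after their values were seen. The members and lists were chosen with earlier results of these data known. The wide microglia-like and plasmacytoid-like gates, and the settings on host cells with Y-linked UMIs, astrocyte genes, microglia genes, macrophage genes and the 5 top cells, were chosen after seeing the data. The script that computes ratios was tested on simulated data. Intervals were computed with SciPy 1.17.1, tables with pandas 2.3.3 and NumPy 2.4.6 (Python 3.11.15), Scrublet through scanpy 1.11.5, and figures with Matplotlib 3.10.9.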

Additional observations from a re-analysis of the deposited data

Results flagged for a closer look

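Slc7a11 differed in opposite directions between groups of cells. In dividing tumour-like cells it stood at 7.36 and 19.3 CPM, a log2 ratio (knockout label over wild type label) of 1.39, and in microglia-like cells at 119 and 23.9, a log2 ratio of -2.32. The ratios lay 3.71 apart, and this difference was not tested, since each group had 1 library. The microglia-like value rests on few cells, as given above. Slc7a5 was higher in CD4 T cells (log2 ratio 0.77) and lower in Ly6c2 monocytes (-0.64), 1.41 apart, which was not tested either. Barcodes with under 500 genes, which entered no comparison, held Slc1a3 at 216 and 429 CPM from 349 and 455 UMIs, above the highest class in each library, the tumour-like cells at 176 and 291.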

How the results depend on the processing

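With 1 library per group no replicate could be left out, and no paired analysis was possible because each group had 1 library whose replicate number is only a name. Over the 7 classes gated as planned, 4 of 91 pairs of member and class were called higher and 8 lower. At a minimum of 50 UMIs these counts were 9 and 14 of 113 pairs, and with the mean over cells in place of summed UMIs 7 and 5. With the highest marker share and no cell left out 10 were higher, with 1 more marker per gate 5 were lower, and with a 2-fold call 2 were higher and 1 lower. The shares of all genes past 1.5-fold and 2-fold are given per class above. For the other alternatives they were not computed, so it cannot be told whether the counts moved with the members or with all genes. Over 68 log2 ratios, 940 recomputed values gave 870 that lay within the counting interval of the reported ratio, 68 that lay outside it and 2 at which a called ratio changed sign: Slc1a4 in T cell-like cells, at -0.16 between host cells with Y-linked UMIs alone, and Slc7a11 in microglia-like cells, at 1.13 without cells that had a macrophage gene UMI. Of 16 called ratios, 5 stayed past 1.5-fold under every alternative run, the second of these exceptions among them with its sign turned. The other 4 were Slc1a2 and Slc36a4 in tumour-like cells and Slc1a3 and Slc36a3os in macrophage-like cells. Not run were the wide classes with cells passing 2 or more gates left out or with the highest marker share, and counts of calls for host cells with Y-linked UMIs, where a class had too few cells. The call of a member needs 100 UMIs, so 18 members could not be compared at this depth.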
